A study of Homo sapiens with 24 samples.

Results

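The genes described here are 10 components, regulators and receptors of the complement system: C1QA, C1QB, C1QC, C2, C3, CFB, SERPING1, C5AR1, C5AR2 and C3AR1. They were taken by gene symbol from a table of 58735 genes, and each of the 10 had 1 row. RNA was sequenced from THP-1, a line from a human monocytic leukaemia. All groups had 72 hours in 20 nM phorbol 12-myristate 13-acetate, given to turn the cells into macrophages. Genotype and state were crossed into 6 groups of 4 libraries, 24 in all: WT cells and CES1KD cells, in which a short hairpin RNA delivered by lentivirus stably lowers CES1. M0 cells got no further stimulus. M1 cells got interferon gamma at 100 ng/ml and LPS at 1 ug/ml, and M2 cells got IL-4 at 100 ng/ml. CES1 encodes carboxylesterase 1, a lipid and drug ester hydrolase, and the series addresses how lowering it affects macrophages in the 3 states. The sources used here do not give whether WT cells carried a control vector, whether CES1KD is 1 clone or how long M1 and M2 treatment lasted, so effects of vector or clone cannot be told apart from CES1 loss. Nor do the labels call the replicates separate cultures, and the spread behind every p-value may therefore be technical.

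Complement is a cascade of plasma proteins that marks targets for uptake and recruits leukocytes. The classical pathway starts when C1q, built from the A, B and C chains, binds a target and its partner proteases cleave C4 and C2; the alternative pathway uses factor B, and both end in convertases that cleave C3 and then C5. The released fragments C3a and C5a, the anaphylatoxins, signal to myeloid cells through C3AR1 and C5AR1, while C5AR2 binds C5a without coupling to G proteins, and the C1 inhibitor encoded by SERPING1 blocks the C1 proteases. The liver makes most plasma complement, whereas macrophages are a main source of C1q and also make C2, C3 and factor B locally.

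The libraries held 14881563 to 26671681 fragments on genes, and 20275 to 25065 genes were above 0. CES1 was 7.13 ± 0.678, 4.63 ± 0.759 and 6.32 ± 0.61 FPKM in WT M0, M1 and M2 (SD, n = 4) and 0.0809, 0.0286 and 0.0505 FPKM on average in the same states of CES1KD. The FPKM unit divides a gene's fragments by its length and by a library size, so that genes can be set beside each other. Of 10 macrophage markers, 9 were at 1 FPKM or more in every library, while CD68 was listed below 1 FPKM in all of them (at most 0.113). The gene AC016876.2, itself at most 0.0386 FPKM, spans 2558 of the 2647 bases of CD68 on the same strand. How fragments that match 2 genes were counted is not stated, so the value may not be the level of CD68. The markers of fibroblasts, epithelium and erythroid cells stayed below 1 FPKM, as did 5 of 6 hepatocyte markers (APOA1 up to 2.53), 3 of 4 B cell markers (PAX5 up to 14.0) and 4 of 5 T cell markers (TRAC up to 129, with CD3E at 0 in every library). The summed macrophage markers were 1745 to 1844 FPKM in WT M1 and 2289 to 2431 in CES1KD M1, 1633 to 1740 and 1596 to 1777 in M0, and 1295 to 1420 and 1019 to 1386 in M2. These sums hold markers that went both ways: of the 9 tested, 5, 6 and 2 were higher and 3, 2 and 3 lower in the M0, M1 and M2 states of CES1KD, from CD163 (2.04 on the log2 scale in M0) to LYZ (-1.93). PAX5 was 12.8 ± 0.973 FPKM in WT M1 and 6.09 ± 0.761 in CES1KD M1 (SD, n = 4), and the summed T cell markers were 50.4 to 66.1 in WT M0 and 112 to 129 in CES1KD M0. The part of these in the results was not tested. 1 library, CES1KD M2 replicate 2, stood apart, with a median correlation with its group across genes of 0.953 against 0.983 or more for all others. In bulk RNA, fewer cells of a type and less RNA per cell cannot be told apart.

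In CES1KD cells the complement genes went in opposite directions. The receptor C5AR1, the central component C3 and the second C5a receptor C5AR2 were higher than in WT in all 3 states, and the C1q chains, C2 and the C3a receptor C3AR1 were lower in all 3. SERPING1 was lower in M1, by -2.10 ± 0.07 on the log2 scale (SE), and was not called in M0 (-0.03 ± 0.07) or M2 (-0.04 ± 0.07); its M1 effect differed from its M0 effect (adjusted p = 3.67e-13). CFB was too low to be tested.

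Counts are of the 9 genes that reached 1 FPKM in at least 4 of the 24 libraries, as 13242 genes did, with a call at an adjusted p under 0.05. SERPING1 and C1QB are among the 9 only through their M1 libraries. In M0, 3 of 9 were called higher and 5 lower in CES1KD, where 28.1% and 26.3% of all tested genes were called. M1 gave 3 higher and 6 lower, against 28.5% and 28.7% of all genes. M2 gave 3 higher and 5 lower, against 25.6% and 26.7%. Their median log2 differences were -0.52, -0.84 and -0.60 in M0, M1 and M2, and the medians over all tested genes were 0.00, 0.00 and -0.01.

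**Figure D1:**
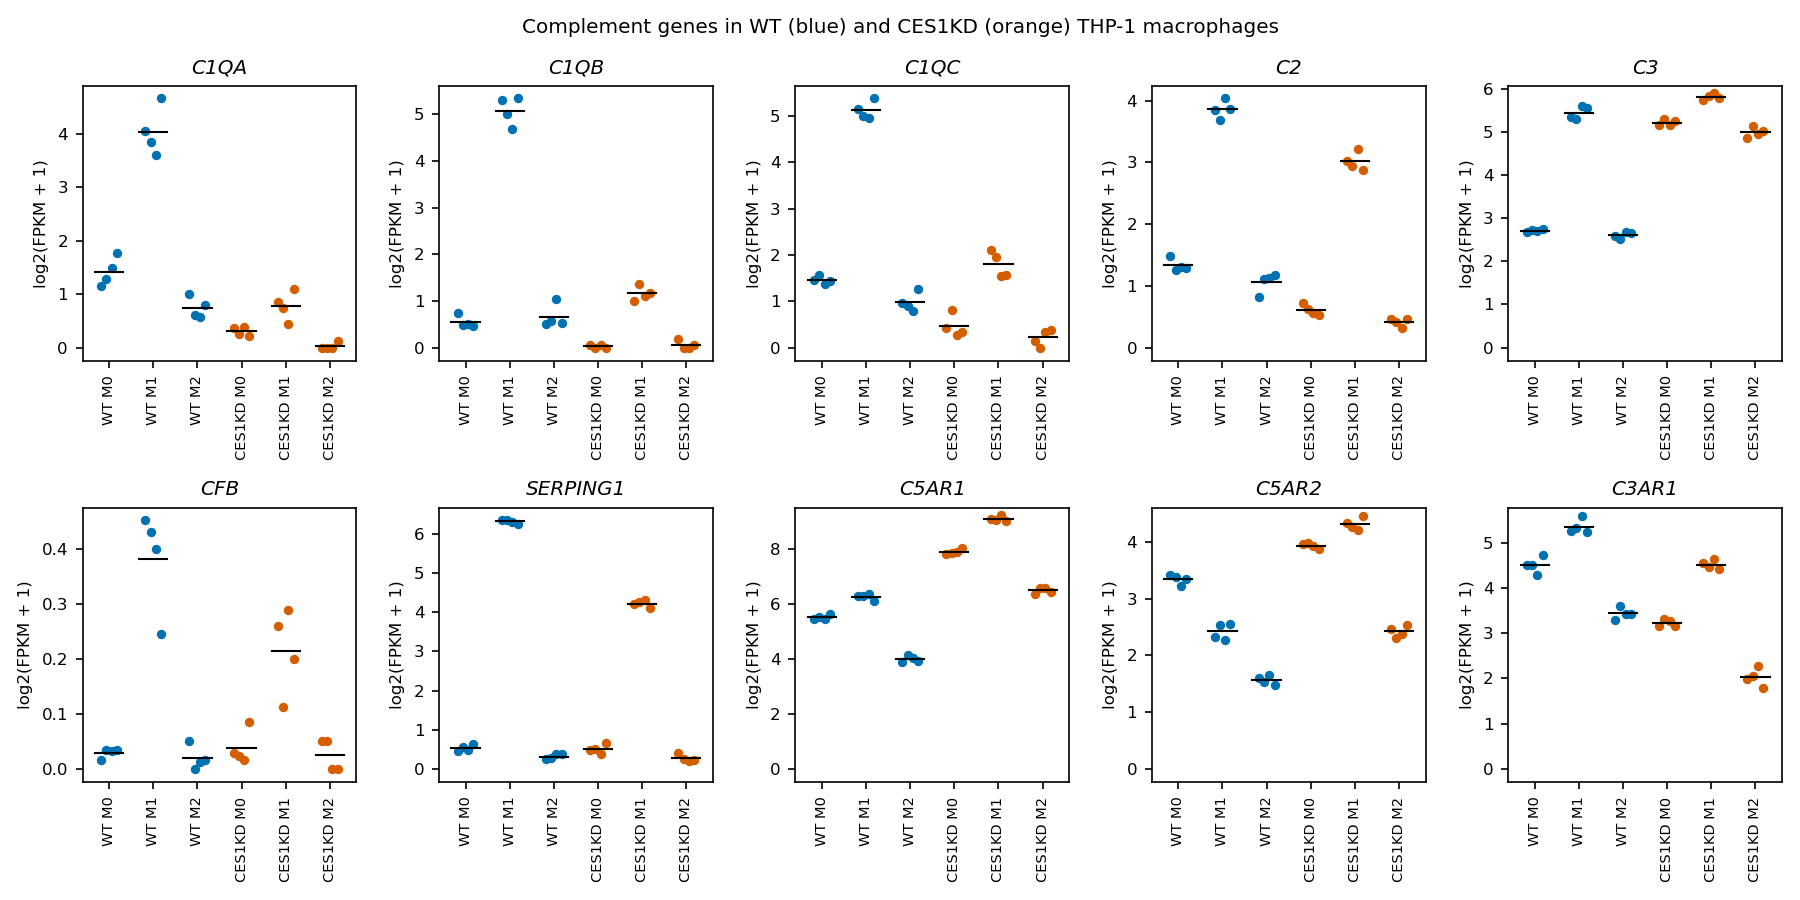
Level of each gene as log2(FPKM + 1) in each of the 24 libraries (points; WT blue, CES1KD orange) with the mean of 4 libraries as a line. The C1q chains and SERPING1 are highest in WT M1, whereas C3, C5AR1 and C5AR2 are highest in CES1KD M1, and CFB stays under 0.5 on this scale.

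Promoter sequence was read for the genes in the RefSeq promoter table (GRCh38.p14), which held 10 promoters of 7 of the 10 genes; C1QC, C3 and SERPING1 were not in it. The 250 bases before each start were searched on both strands, and 3 of the motifs searched are given here: TTCNNNGAA (GAS, the interferon gamma activated site), GAAANNGAA (the core of the interferon response element) and GGGNNTTNC (NF-kB), none of which overlapped another in the sequences shown. GAS was found in 4 of the 10 promoters, both of C1QA, that of CFB and 1 of C5AR2, and in 6.57% of all 35116 promoters; the 2 of C1QA hold the same match. The interferon response core was found in 1 (CFB, 6.88% of all) and NF-kB in 2 (C1QB and 1 of C2, 14.2%). That C1QB window lies wholly in an annotated C1QB exon, and that C2 window in an exon of ZBTB12 on the minus strand. The sequences below are those of a C1q chain, of the C5a receptors, whose M1 responses differed, and of the 2 CFB matches; capitals mark a match, and the interferon response core of CFB reads on the minus strand. C5AR2 is shown up to its first annotated exon, and the stretch before C5AR1 lies in an intron of the longer gene model of the deposited coordinates. Both CFB windows lie in an exon of a longer CFB gene model. No match to these 3 is present in the C5AR1 window.
C1QA (chr1:22636213-22636462, plus strand, RefSeq): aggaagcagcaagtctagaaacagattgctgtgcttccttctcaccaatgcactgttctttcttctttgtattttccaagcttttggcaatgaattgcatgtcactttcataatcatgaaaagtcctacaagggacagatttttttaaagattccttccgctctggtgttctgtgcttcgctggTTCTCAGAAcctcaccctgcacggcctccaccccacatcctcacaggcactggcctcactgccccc
C5AR1 (chr19:47309611-47309860, plus strand, RefSeq): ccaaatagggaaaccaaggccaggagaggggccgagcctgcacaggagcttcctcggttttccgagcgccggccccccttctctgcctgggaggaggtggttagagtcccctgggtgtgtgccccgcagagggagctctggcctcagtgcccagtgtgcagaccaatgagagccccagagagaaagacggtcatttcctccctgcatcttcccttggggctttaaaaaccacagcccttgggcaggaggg
C5AR2 (chr19:47331925-47332146, plus strand, RefSeq): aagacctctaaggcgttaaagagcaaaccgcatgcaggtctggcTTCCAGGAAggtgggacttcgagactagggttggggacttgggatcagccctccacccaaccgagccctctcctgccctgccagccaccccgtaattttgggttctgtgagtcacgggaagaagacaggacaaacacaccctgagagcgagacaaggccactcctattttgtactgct
CFB interferon response core (chr6:31945946-31945975, plus strand, RefSeq): cttctgcagtTTCTGTTTCcttgactggca
CFB GAS (chr6:31945993-31946022, plus strand, RefSeq): cgcttggatgTTCCGGGAAagtgatgtggg

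As ratios of means, the C1q chains were the genes with the lowest CES1KD levels relative to WT in every state. On the log2(FPKM + 1) scale this held in M1, whereas C3AR1 had the lowest difference in M0 and M2. C1QA, C1QB and C1QC encode the 3 chains of the C1q molecule and lie next to each other on chromosome 1, on the plus strand, at chr1:22636506-22639608, chr1:22652762-22661538 and chr1:22643630-22648110 (GRCh38, coordinates of the deposited table). C1QB measured 38.2, 30.9, 24.5 and 39.4 FPKM in the 4 WT M1 libraries and 0.996, 1.55, 1.15 and 1.26 FPKM in the CES1KD M1 libraries. The lowest WT library was far above the highest knockdown library. The difference was -3.92 ± 0.13 on the log2(FPKM + 1) scale (SE, adjusted p = 1.57e-16), and the ratio of means was 26.8-fold lower.

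C1QA was 15.5, 13.4, 11.1 and 24.3 FPKM in WT M1 and 0.811, 0.677, 0.349 and 1.12 FPKM in CES1KD M1, a difference of -3.26 ± 0.17 (adjusted p = 5.58e-13). C1QC was 34.8, 31.0, 30.01 and 40.8 FPKM in WT M1 and 3.34, 2.88, 1.94 and 1.96 FPKM in CES1KD M1, a difference of -3.33 ± 0.14 (adjusted p = 8.08e-15). Neither gene overlapped between the lines. The summed level of the chains was 83.5 ± 16.8 FPKM in WT M1 and 4.51 ± 0.804 in CES1KD M1 (SD, n = 4 each).

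At rest the chains were low in WT and near the limit of detection in CES1KD. C1QA went from 1.72 ± 0.527 to 0.235 ± 0.0732 FPKM, C1QB from 0.467 ± 0.137 to 0.0168 ± 0.0195 and C1QC from 1.76 ± 0.162 to 0.392 ± 0.242 (SD, n = 4 each). The 4 CES1KD M0 libraries held 2 fragments of C1QB in all, against 56 in WT M0, a ratio of 0.0331 with an exact 95% counting interval of 0.00391 to 0.125. In the 2 of these libraries with 0 fragments, 3 fragments would have been 0.0746 and 0.0948 FPKM, which is the level that a count of 0 allows. All 3 chains passed the test in M0, with log2 differences of -1.12 ± 0.17, -0.52 ± 0.13 and -1.001 ± 0.14 for C1QA, C1QB and C1QC.

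With IL-4, C1QA and C1QC averaged less than at rest in both lines, called in WT and not in CES1KD, and C1QB was not called in either line (0.597 against 0.467 FPKM in WT and 0.0429 against 0.0168 in CES1KD). In M2, C1QA held 2 fragments over the 4 CES1KD libraries and 63 over the WT libraries, a ratio of 0.0274 (95% counting interval 0.00324 to 0.103), and 3 of the 4 CES1KD libraries had none, where 3 fragments would be 0.0849 to 0.143 FPKM. The CES1KD M2 group gave 7 fragments of C1QB against 75 in WT and 20 of C1QC against 96. The differences passed the test for all 3 chains, at -0.71 ± 0.17, -0.60 ± 0.13 and -0.76 ± 0.14 (adjusted p = 0.00166, 0.000476 and 8.82e-05). Without CES1KD M2 replicate 2 these differences were -0.70, -0.58 and -0.69, and no call of the 9 genes in M2 changed.

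The make-up of the C1q RNA also differed between M0 and M1. C1QB was 12.1 ± 4.4% of the summed FPKM of the 3 chains in WT M0 and 39.8 ± 2.79% in WT M1, and 2.79 ± 3.28% and 28.1 ± 6.11% in CES1KD M0 and M1 (SD, n = 4). The M0 and M1 libraries did not overlap in either line: the highest M0 share was 18.5% in WT and 6.33% in CES1KD, and the lowest M1 share was 37.3% and 19.4%. The CES1KD M0 shares rest on 2 fragments of C1QB in all. In M2 the C1QB share ran from 17.0% to 46.3% in WT and from 0% to 55.6% in CES1KD, which overlaps M1. C1QC was on average the largest share in every group, at 55.7 ± 8.13% in CES1KD M1 against 41.3 ± 3.09% in WT M1. In every group but CES1KD M1, another chain was larger in some libraries, as C1QA was in WT M0 replicate 4 (53.6% against 38.1%). CES1KD M2 replicate 2, with a sum of 0, gave no share.

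The components cleaved to form the C3 convertases did not follow one direction. C2, the serine protease partner of C4b in the classical convertase, lies at chr6:31897785-31945672 on the plus strand, directly before CFB at chr6:31945650-31952084. C2 was 1.79, 1.39, 1.47 and 1.45 FPKM in WT M0 and 0.646, 0.547, 0.471 and 0.448 in CES1KD M0. In M1 it was 13.3, 11.9, 15.6 and 13.5 FPKM in WT and 7.08, 6.72, 8.32 and 6.34 in CES1KD. Every CES1KD library was below every WT library of the same state.

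The C2 difference was -0.72 ± 0.09, -0.84 ± 0.09 and -0.64 ± 0.09 in M0, M1 and M2 (adjusted p = 4.05e-07, 3.89e-08 and 2.27e-06). As ratios of means C2 was 2.89-, 1.91- and 3.28-fold lower. On the opposite strand C2 overlaps ZBTB12 over 2386 bases and C2-AS1 over 7251, at most 1.95 and 0.785 FPKM in any library. The use of strand in counting is not stated, so reads in these stretches cannot be told apart. On the same strand, the gene AL645922.1 spans 17975 of the 47888 bases of C2 and 6399 of the 6435 bases of CFB and is itself listed at 0.0158 FPKM or less, so fragments that match 2 genes may be missing from either.

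C3, the component on which all pathways converge, was the one tested secreted component that was called higher in CES1KD. It lies at chr19:6677704-6730562 on the minus strand. The resting level was 5.43, 5.65, 5.52 and 5.69 FPKM in WT and 34.9, 38.3, 34.7 and 37.6 FPKM in CES1KD. The CES1KD M2 libraries were also above all WT libraries, at 28.3, 34.5, 30.2 and 31.6 FPKM against 4.76 to 5.38 in WT M2. In M1 the lines came close, with 39.8, 38.4, 47.8 and 46.0 FPKM in WT and 52.8, 56.5, 58.8 and 54.0 in CES1KD, but still did not overlap.

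The log2 difference of C3 was 2.51 ± 0.07 at rest, 0.37 ± 0.07 with LPS and interferon gamma and 2.39 ± 0.07 with IL-4 (adjusted p = 3.17e-18, 6.68e-05 and 1.37e-17). As ratios of means these were 6.53-, 1.29- and 6.08-fold. Its neighbour GPR108 overlaps the 5′ end of C3, shares 649 bases with it on the same strand and reached 28.3 FPKM, so a part of the fragments may be split between them. The ratio of C3 to C2 within a library was 3.69 ± 0.456, 3.17 ± 0.187 and 4.87 ± 1.18 in WT M0, M1 and M2 and 70.4 ± 12.4, 7.86 ± 0.715 and 96.7 ± 21.7 in CES1KD (SD, n = 4).

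CFB, which encodes factor B of the alternative pathway, was listed below 0.4 FPKM in every library, a level that the overlap with AL645922.1 may understate. Its 4 M1 libraries held 106 fragments in WT and 59 in CES1KD, and the M0 and M2 groups held 5 to 11. The M1 levels were 0.368, 0.348, 0.319 and 0.185 FPKM in WT and 0.197, 0.0811, 0.222 and 0.148 in CES1KD. The lines overlapped in M1, with a ratio of pooled fragments of 0.53 (95% counting interval 0.379 to 0.736) and p = 0.0857 in the exact two-sided permutation test, whose smallest possible p for 4 against 4 is 0.0286. With a filter at 0.1 FPKM the M1 difference of -0.17 ± 0.05 was called (adjusted p = 0.00521 in limma), a setting under which CFB enters the fit. It does so only through M1 libraries. The spread behind this p is shared with the M0 and M2 groups of 5 to 11 fragments, so it is not that of the M1 libraries alone.

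SERPING1 encodes the C1 inhibitor, a serpin that inactivates the C1 proteases, and lies at chr11:57597387-57614853 on the plus strand. In M1 it was 80.5, 81.1, 77.9 and 75.1 FPKM in WT and 17.5, 18.2, 18.8 and 16.1 FPKM in CES1KD. All knockdown libraries were below all WT libraries, 4.46-fold on average (adjusted p = 6.07e-17). At rest the lines overlapped, with 0.456 ± 0.0839 FPKM in WT and 0.423 ± 0.115 in CES1KD (SD, n = 4), from 125 and 126 fragments. A ratio between 0.724 and 1.21 is within the counting interval of these M0 fragments, and between 0.625 and 1.26 in M2.

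**Figure D2:**
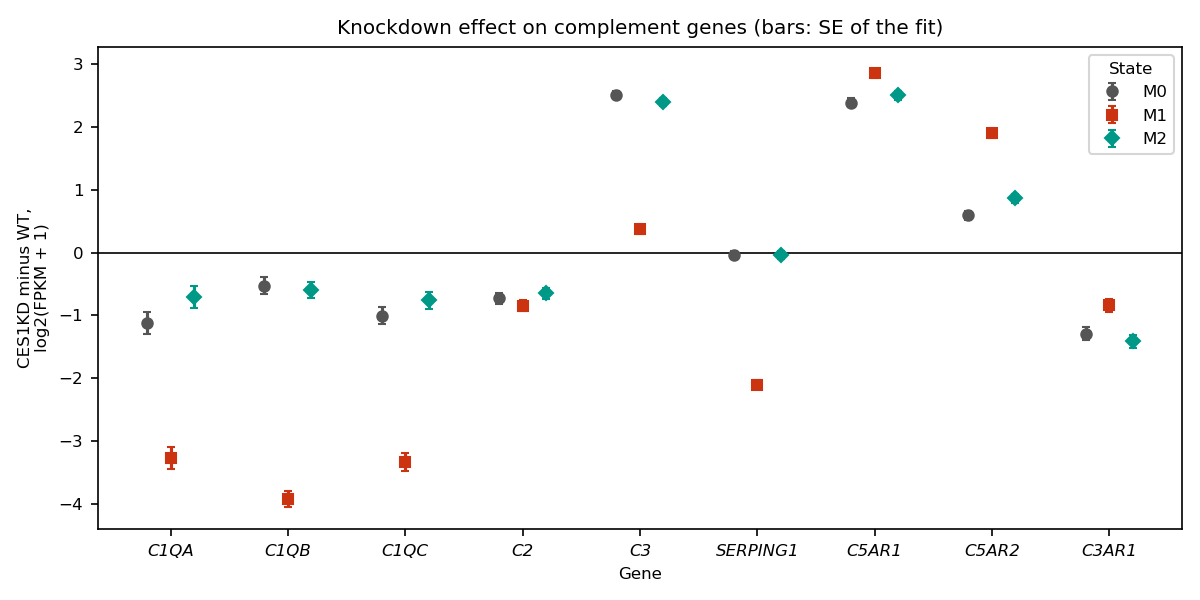
Difference between CES1KD and WT on the log2(FPKM + 1) scale (y axis) for the 9 tested genes (x axis) in M0, M1 and M2; bars are the SE of the fit. The 3 C1q chains lie between -3.26 and -3.92 in M1, C5AR1 lies above 2 in every state, and C3 drops from 2.51 in M0 to 0.37 in M1.

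The anaphylatoxin receptors moved apart in CES1KD, with both C5a receptors higher and the C3a receptor lower. C5AR1, the G protein coupled receptor for C5a, lies at chr19:47290023-47322066 on the plus strand, and C5AR2 follows it at chr19:47332147-47347327. C5AR1 was 43.3, 45.7, 43.1 and 48.6 FPKM in WT M0 and 226, 231, 237 and 261 FPKM in CES1KD M0. In M1 it was 77.3, 77.2, 82.2 and 68.6 FPKM in WT and 548, 537, 610.1 and 525 FPKM in CES1KD. In every state the lowest CES1KD library was above the highest WT library, and the CES1KD M2 group, its lowest, was still above WT M1.

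The differences of C5AR1 were 2.38 ± 0.07, 2.85 ± 0.07 and 2.50 ± 0.07 in M0, M1 and M2 (adjusted p = 2.24e-17, 1.63e-18 and 1.76e-17), or 5.29-, 7.27- and 5.95-fold by means. C5AR2, which binds C5a and modulates C5AR1 signalling, was 9.13 ± 0.572, 4.38 ± 0.526 and 1.97 ± 0.159 FPKM in WT M0, M1 and M2 and 14.3 ± 0.498, 19.0 ± 1.46 and 4.39 ± 0.374 FPKM in CES1KD (SD, n = 4). Its M1 libraries were 4.03, 4.81, 3.84 and 4.85 FPKM in WT and 19.1, 18.2, 17.6 and 20.9 in CES1KD. The lines did not overlap, and WT M1 was below WT M0 while CES1KD M1 was above CES1KD M0. The differences between the lines were smaller than those of C5AR1, at 0.59 ± 0.07, 1.89 ± 0.07 and 0.86 ± 0.07 (adjusted p = 2.17e-07, 9.29e-16 and 7.48e-10).

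C3AR1, the C3a receptor on chromosome 12 (chr12:8058302-8066471, minus strand), went the other way. It was 21.7, 21.8, 18.4 and 25.5 FPKM in WT M0 and 7.91, 8.95, 8.57 and 7.86 FPKM in CES1KD M0. Stimulated cells kept the order, with 40.1 ± 4.73 against 21.9 ± 1.58 FPKM in M1 and 9.85 ± 0.97 against 3.10 ± 0.577 in M2. The differences were -1.29 ± 0.10, -0.84 ± 0.10 and -1.41 ± 0.10 (adjusted p = 3.66e-10, 3.08e-07 and 9.46e-11).

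The ratio of C5AR1 to C3AR1 within a library set both changes side by side. It was 2.08 ± 0.185, 1.91 ± 0.137 and 1.54 ± 0.0494 in WT M0, M1 and M2 and 28.8 ± 3.15, 25.4 ± 0.552 and 29.7 ± 4.37 in CES1KD (SD, n = 4). Over the 12 WT libraries it ran from 1.49 to 2.34, and over the 12 CES1KD libraries from 24.6 to 35.3. The ratio of C5AR1 to C5AR2 moved with state as well, from 4.96 ± 0.362 in WT M0 to 17.7 ± 3.24 in WT M1, and was 16.8 ± 1.67, 29.5 ± 3.97 and 20.8 ± 3.12 in CES1KD M0, M1 and M2.

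**Figure D3:**
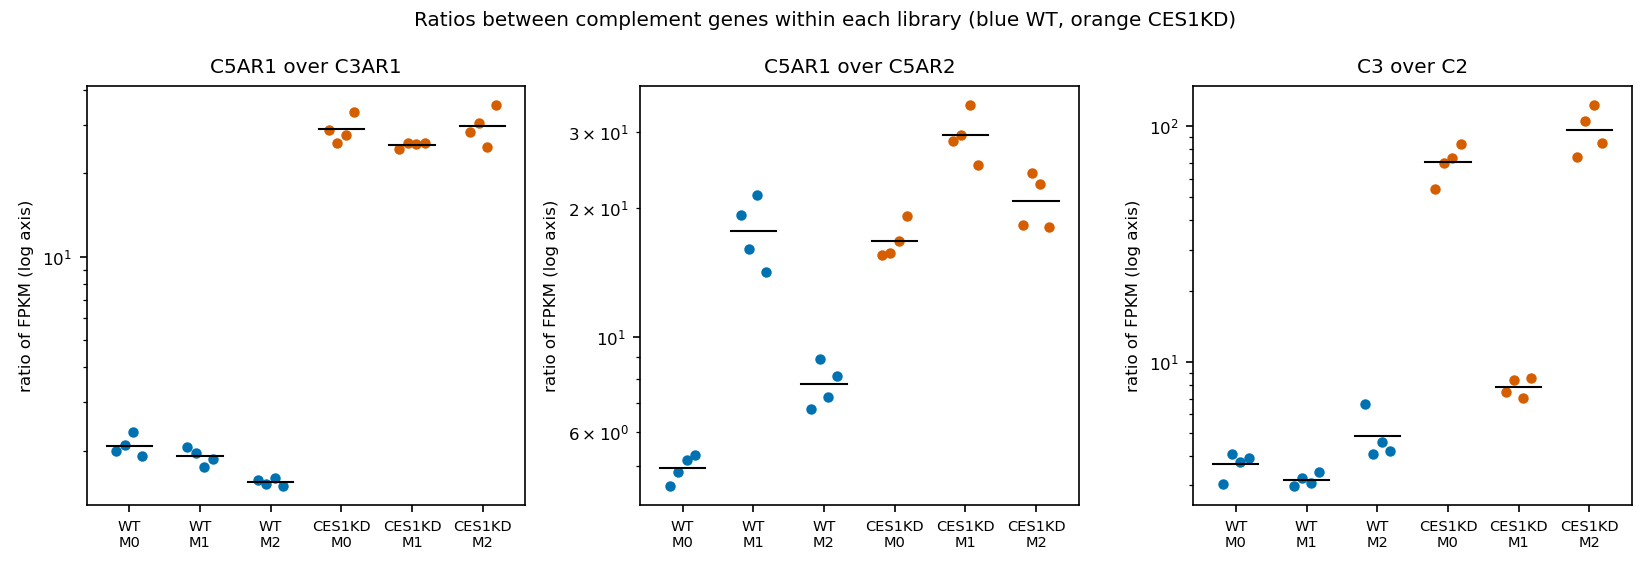
Ratios of FPKM between pairs of complement genes within each library (log axis; points are libraries, lines the means of 4; WT blue, CES1KD orange). C5AR1 over C3AR1 stays between 1.49 and 2.34 in WT and between 24.6 and 35.3 in CES1KD, while C3 over C2 falls to 7.86 in CES1KD M1 from 70.4 in CES1KD M0.

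Ordered by level, neighbouring groups were separate for C3, C5AR1 and C2, with no overlap of libraries between any group and the next. The share of all tested genes with such a separation was not counted. Some gaps were narrow. For C3 the highest CES1KD M0 library was 38.3 FPKM and the lowest WT M1 library 38.4. The highest WT M2 library was 5.38 and the lowest WT M0 library 5.43, a comparison that was not called. For C5AR1 the highest WT M1 library was 82.2 FPKM and the lowest CES1KD M2 library 82.8. M1 levels depend on the library size used, and the order was not read under other scalings. The order for C3 ran WT M2, WT M0, CES1KD M2, CES1KD M0, WT M1 and CES1KD M1, and that for C5AR1 ran WT M2, WT M0, WT M1, CES1KD M2, CES1KD M0 and CES1KD M1. C5AR2 had 1 pair that overlapped, WT M1 with CES1KD M2. C3AR1 had 2, CES1KD M0 with WT M2 and WT M0 with CES1KD M1. Among the C1q chains the highest group, WT M1, stood clear of the next one for each chain, and the overlaps were among the groups that averaged under 3 FPKM.

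LPS with interferon gamma raised nearly all of the genes. In WT, 8 of 9 rose and 1, C5AR2, fell, where 26.4% of all tested genes rose and 21.8% fell. In CES1KD, 9 of 9 rose and 0 fell in the limma fit (0 also at an unadjusted p under 0.05 and with voom), where 24.9% and 19.8% of all genes did. The median log2 change of the 9 was 2.62 in WT and 1.21 in CES1KD, against 0.00 and 0.01 over all tested genes. SERPING1, at most 0.576 FPKM in any M0 or M2 library, and C1QB passed the 1 FPKM filter only through M1 libraries. Their rises in these counts and medians were therefore in part set by the filter. CFB, below the filter, went from 8 to 106 fragments in WT (a pooled ratio of 14.1, 95% counting interval 6.92 to 33.6) and from 11 to 59 in CES1KD (5.88, interval 3.06 to 12.4).

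The largest rise in WT was that of SERPING1, from 0.456 to 78.7 FPKM (5.78 ± 0.07 on the log2 scale, adjusted p = 6.4e-25), followed by C1QB (4.53 ± 0.13) and C1QC (3.66 ± 0.14). C3 rose by 2.74 ± 0.07, C1QA by 2.62 ± 0.17 and C2 by 2.53 ± 0.09. The receptors moved less, with C5AR1 up 0.74 ± 0.07, C3AR1 up 0.85 ± 0.10 and C5AR2 at -0.92 ± 0.07 (adjusted p = 1.09e-08, 3.39e-07 and 2.6e-10).

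In CES1KD the same stimulus took SERPING1 up by 3.71 ± 0.07, C2 by 2.40 ± 0.09, C1QC by 1.34 ± 0.14, C3AR1 by 1.29 ± 0.10, C5AR1 by 1.21 ± 0.07 and C1QB by 1.13 ± 0.13. C3 rose by 0.60 ± 0.07 from its high resting level. C1QA rose by 0.48 ± 0.17 (adjusted p = 0.0303), a call that was lost with no filter (0.0797), under scaling by total fragments (0.0665), with voom on fragments (0.0688) and without any 1 of 4 libraries (CES1KD M0 replicates 2 and 4, CES1KD M1 replicates 1 and 4; 0.0643 to 0.108). C5AR2 rose by 0.38 ± 0.07 (adjusted p = 0.000101), but by 0.14 under scaling by total fragments (0.115) and 0.11 as TPM (0.279), neither of which was called.

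Whether the knockdown effect in M1 differed from that in M0 was tested as an interaction. It was called lower for 5 of 9 genes and higher for 3, where 13.2% and 10.4% of all tested genes were called lower and higher. The called genes were C1QB (-3.39 ± 0.18), C1QC (-2.33 ± 0.20), C3 (-2.14 ± 0.09), C1QA (-2.14 ± 0.25) and SERPING1 (-2.06 ± 0.09) on the lower side, and C5AR2 (1.30 ± 0.10), C5AR1 (0.47 ± 0.10) and C3AR1 (0.45 ± 0.14) on the higher. C2 was not called (-0.12 ± 0.13, adjusted p = 0.557). SERPING1 and C1QB are among the 9 only through their M1 libraries, so these counts were in part set by the filter. With voom on fragments the counts were 3 lower and 3 higher. The C3AR1 call (adjusted p = 0.026) was lost with no filter (0.0612), as TPM (0.0559) and without any 1 of 5 libraries (WT M0 replicate 4, WT M1 replicates 1 and 4, CES1KD M0 replicate 4 and CES1KD M1 replicate 3; 0.0511 to 0.0635).

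The differences of effect for the C1q chains depended on the 1 FPKM added before the log, since their resting levels were near or under it. As a ratio of means C1QB rose 71.2-fold in WT and 73.7-fold in CES1KD, the latter from 2 resting fragments, and a fit on recovered fragments with limma's voom gave an interaction of -0.54 ± 1.02 (adjusted p = 0.776). C1QA rose 9.36- and 3.15-fold in the lines (voom -1.64 ± 0.77, adjusted p = 0.14) and C1QC 19.4- and 6.45-fold (voom -1.52 ± 0.52, adjusted p = 0.0389). SERPING1 and C3 did not depend on it in this way. SERPING1 rose 172.7-fold in WT and 41.7-fold in CES1KD (voom -2.05 ± 0.26, adjusted p = 1.64e-06), and C3 rose 7.72- and 1.53-fold (voom -2.34 ± 0.10, adjusted p = 6.88e-15).

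**Figure D4:**
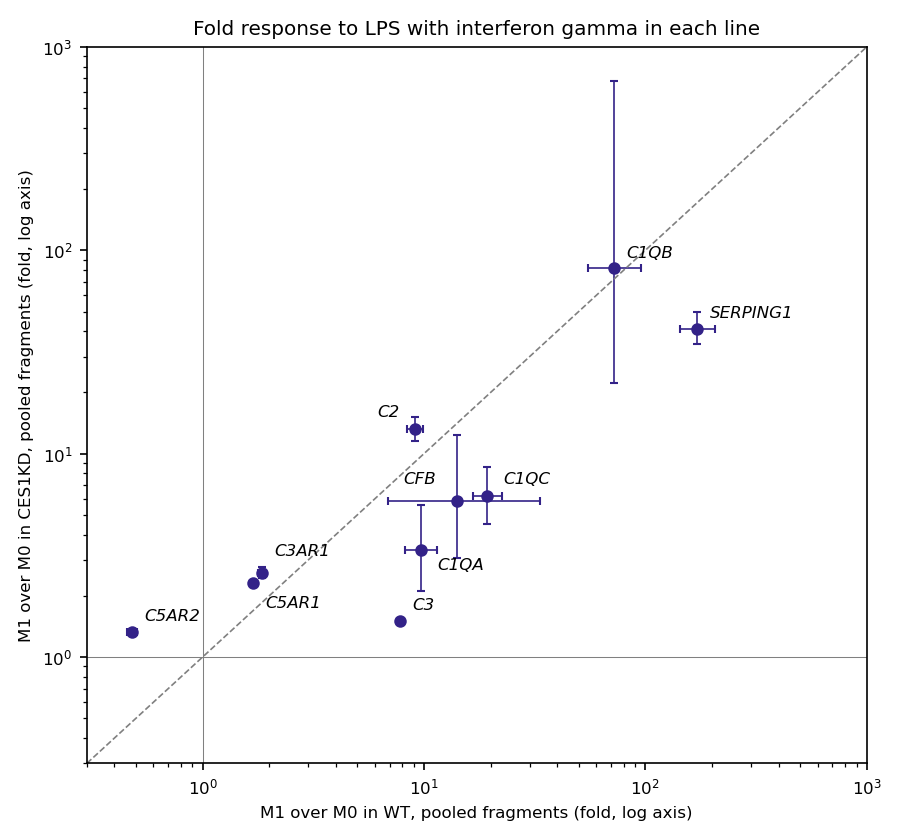
Ratio of pooled fragments, scaled as FPKM, in M1 over M0 in WT (x axis) and CES1KD (y axis), both log axes, with exact 95% counting intervals. C1QB lies near the dashed line of equal folds with an interval of 22.2 to 680.3 in CES1KD, SERPING1 and C3 lie below it, and C5AR2 falls in WT and is above 1 in CES1KD.

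IL-4 raised none of the genes and lowered the receptors in both lines. In WT 0 of 9 rose and 7 fell, where 14.6% and 12.5% of all tested genes rose and fell. In CES1KD 0 rose and 5 fell, where 11.3% and 11.5% did. At an unadjusted p under 0.05 the rises were also 0 in the limma fit and with voom in both lines, and the largest, C1QB in WT, was 0.11 ± 0.13 (adjusted p = 0.599). The median change of the 9 was -0.48 in WT and -0.24 in CES1KD, against 0.00 and -0.01 over all tested genes. The M1 and M2 comparisons of a line share its M0 libraries.

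C5AR2 fell by 1.77 ± 0.07 in WT and by 1.51 ± 0.07 in CES1KD, C5AR1 by 1.52 ± 0.07 and 1.40 ± 0.07, and C3AR1 by 1.07 ± 0.10 and 1.20 ± 0.10 on the log2 scale. By means these were 4.64- and 3.26-fold, 2.98- and 2.65-fold, and 2.22- and 2.69-fold lower. The smaller falls in WT were those of C1QA (-0.68 ± 0.17), C1QC (-0.48 ± 0.14), C2 (-0.28 ± 0.09) and SERPING1 (-0.22 ± 0.07). In CES1KD, C3 (-0.22 ± 0.07, adjusted p = 0.0189) and SERPING1 (-0.23 ± 0.07, adjusted p = 0.012) were called, and C1QA, whose M2 libraries held 2 fragments against 24 at rest, was not (-0.27 ± 0.17, adjusted p = 0.313).

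Several of the small M2 calls were lost under other settings. The C2 call in WT was lost without WT M0 replicate 1 or WT M2 replicate 1 (adjusted p = 0.0908 and 0.104), the SERPING1 calls without WT M0 replicate 4 in WT (0.052) and without CES1KD M0 replicate 4 in CES1KD (0.0597), and the C3 call in CES1KD without CES1KD M0 replicate 2, CES1KD M0 replicate 4 or CES1KD M2 replicate 1 (0.0642, 0.0559 and 0.0751). With only the compared groups in the fit, C2 and SERPING1 in WT and C3 and SERPING1 in CES1KD were not called (0.0541, 0.0602, 0.0818 and 0.129). In WT, C1QA was not called with voom (0.0600) nor C1QC with 0.1 added or with voom (0.0918 and 0.0895). C1QA in CES1KD was called with 0.1 added, as TPM, with voom and with only the compared groups (0.00115, 0.0156, 0.0434 and 0.0476), and C2 in CES1KD with 0.1 or 0.5 added and as TPM (0.00876, 0.0481 and 0.0221). C3 in WT was called under total fragments (0.0193) and as TPM (0.0497). The knockdown effect in M2 differed from that in M0 for 0 of 9 genes in either direction by the limma fit, where 2.41% of all tested genes were called higher and 4.24% lower. At an unadjusted p under 0.05 the counts were 1 higher (C5AR2) and 0 lower, and with voom 1 and 0. The nearest was C5AR2, at 0.27 ± 0.10 (adjusted p = 0.128), which was called with 0.1 added (0.48, adjusted p = 0.0151), with 0.5 added (0.37, 0.0453), as TPM (0.50, 0.00788) and with voom (0.48, 0.034).

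In the promoter sequences above, the GAS match of C1QA starts 66 bases before the RefSeq start, that of CFB 92 and that of C5AR2 206. C1QA and C5AR2 both hold one, and C1QA rose in WT M1 while C5AR2 fell. In CES1KD both were called higher in M1, calls that were lost under some settings. C5AR1, which holds none of these 3 motifs in this window, rose in both lines. The matches describe letters and say nothing of binding.

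Regulators known to act on complement genes were read as context. IRF8 was lower in CES1KD in every state (-1.38 ± 0.06, -1.29 ± 0.06 and -0.35 ± 0.06). IRF1 was lower in M1 (-0.70 ± 0.09) and higher in M2 (0.57 ± 0.09), and CEBPB was higher in all 3 (1.57, 1.04 and 1.36, each ± 0.27). SPI1 was higher in M0 (0.47 ± 0.18, adjusted p = 0.0364) and not called in M1 or M2. Their part in the complement levels was not tested.

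Each tested gene was set beside the 3 protein-coding genes whose log2 levels were most like its own over the 24 libraries, as a description. Nearest to SERPING1 were CXCL9, HLA-DRA and IDO1 (Pearson's r = 0.998 each), genes that interferon gamma induces. C2 lay nearest to HLA-DRB1 (0.994), GBP5 (0.991) and GIMAP4 (0.99), C1QA to HLA-DMB (0.982), SERPINA1 (0.975) and C1QC (0.966), and C1QB to HLA-DPB1 (0.982), MYH11 (0.979) and C1QC (0.978). C1QC lay nearest to SNX20 (0.979), C1QB and P2RX7 (0.974).

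C3 lay apart from these, nearest to IFIT5 (0.992), SIGLEC1 (0.99) and EIF2AK2 (0.99), interferon-induced genes that, like C3, were higher at rest in CES1KD: IFIT5 averaged 1.37 FPKM in WT M0 and 17.3 in CES1KD M0. The nearest genes of C5AR1 were TCTEX1D1 (0.995), IGFBP3 (0.994) and SYTL3 (0.987), of C5AR2 TLE4 (0.983), LIMD1 (0.95) and CNIH3 (0.945), and of C3AR1 HAVCR2 (0.987), GRAMD1B (0.958) and FCGR1A (0.949). Among the complement genes themselves, r was 0.971 for SERPING1 with C2, 0.864 for C5AR1 with C5AR2, 0.837 for C5AR1 with C3 and 0.0873 for C5AR1 with C3AR1. All 24 libraries fall into 6 groups, and each r shares them.

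Genes around the complement genes were read for comparison. The genes tested within 5 Mb of each of the 10 genes, 63 to 199 of them, had median knockdown differences between -0.10 and 0.15 in all 3 states.

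Other complement genes were read from a list of 39, all of them in the table and 14 tested. In each state of CES1KD 2 of the 14 were higher, and 6, 9 and 5 were lower in M0, M1 and M2, with medians of -0.25, -0.25 and -0.11. Of all tested genes 28.1%, 28.5% and 25.6% were called higher and 26.3%, 28.7% and 26.7% lower in these comparisons, with medians of 0.00, 0.00 and -0.01. Of the 25 untested genes, 2 (CFP and CLU, named after their values were seen) reached 1.32 and 1.20 FPKM and the others stayed under 1 FPKM in every library. The gene with the largest difference was CFD, factor D, the protease that cleaves factor B: it was 127 ± 8.4, 102 ± 15.5 and 105 ± 6.35 FPKM in WT M0, M1 and M2 and 19.3 ± 3.22, 19.0 ± 1.99 and 15.8 ± 4.14 in CES1KD (SD, n = 4). Its differences were -2.67, -2.36 and -2.70, each ± 0.15 (adjusted p = 1.61e-12, 1.42e-11 and 1.72e-12).

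ITGAM, the alpha chain of complement receptor CR3, was lower in M1 by -1.02 ± 0.04 (adjusted p = 9.37e-15), and C1QBP, a mitochondrial protein that binds C1q, by -1.03 ± 0.08 (3.18e-10). CD93, first described as a C1q receptor, was higher in CES1KD M1, at 19.2 ± 1.12 against 3.08 ± 0.374 FPKM (2.31 ± 0.07, adjusted p = 1.34e-17).

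**Figure D5:**
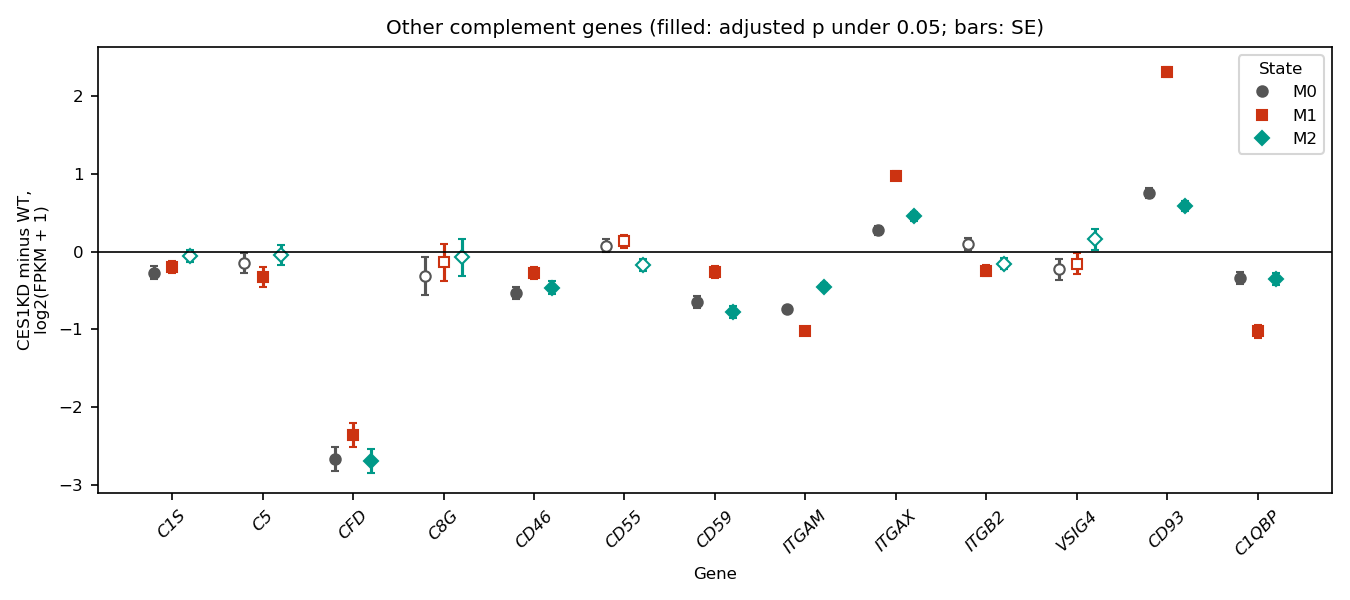
Difference between CES1KD and WT on the log2(FPKM + 1) scale (y axis) for the tested activation, terminal, membrane regulator and receptor genes of the wider complement list (x axis) in M0, M1 and M2; filled symbols have an adjusted p under 0.05 and bars are the SE. CFD lies between -2.36 and -2.70 in all states and CD93 reaches 2.31 in M1.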

How the data were processed

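The authors deposited FPKM per gene; per the submitters' processing notes CASAVA, HISAT2 and DESeq were used, with versions, roles, build and annotation not given in the sources used here. Start and end of 58724 of 58735 genes equal those of GENCODE 29 (GRCh38). The product of FPKM and gene length came in whole multiples of a unit particular to each library (100% of genes, tolerance 1e-06), which gave fragments. The library size behind FPKM was 0.87 to 0.946 of total fragments in M1 but 1.01 to 1.14 of the total for M0 and M2 libraries, so M1 levels depend on it.

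log2(FPKM + 1) of the 13242 genes at 1 FPKM or more in at least 4 libraries was fitted with limma 3.58.1 (R 4.3.3; a mean per group, eBayes with trend, two-sided, Benjamini-Hochberg over genes kept, called under 0.05); the added 1 understates changes of low genes. All differences, SE and adjusted p in the text come from this fit unless another is named. Ratios of pooled fragments have exact 95% intervals, and these and the limit of 3 fragments cover counting error only. Groups follow the sample titles. Simulated data with known changes were used to test the fit.

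The genes and all lists were chosen with earlier results of these data known. Named are the 10 genes, for each tested one its 3 most alike protein-coding genes by Pearson's r, regulators of complement transcription, and genes of the complement list with at least 2 FPKM in a group and a called difference of at least 1; some results, 1 searched motif among them, are not reported here. Alternatives were the added value, the filter, 3 other scalings (1 of them, TMM factors, chosen after seeing the data), voom, the groups in the fit, the replicate number as a block, and each library left out.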

Additional observations from a re-analysis of the deposited data

Results flagged for a closer look

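In 4 of the 60 combinations of gene and group, 1 library lay apart from the other 3 by Dixon's criterion (0.829 for 4 values), which chance meets in about 1 in 20 groups. They were the highest library of C1QA in CES1KD M2 (0.092 FPKM, from 2 fragments, where the others had 0), the highest of C1QB in WT M0 (0.671 FPKM) and in WT M2 (1.06 FPKM), and the lowest of CFB in WT M0 (0.0119 FPKM, from 1 fragment).

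The knockdown effect differed between M1 and M0 by the interaction test for 8 of the 9 tested genes, 5 lower and 3 higher, where 13.2% and 10.4% of all tested genes were called lower and higher. On the log2(FPKM + 1) scale the M1 effect minus the M0 effect was -2.14 for C1QA, -3.39 for C1QB, -2.33 for C1QC, -2.14 for C3, -2.06 for SERPING1, 0.47 for C5AR1, 1.30 for C5AR2 and 0.45 for C3AR1. For C1QA and C1QB it was not called with voom on fragments (adjusted p = 0.14 and 0.776). SERPING1 and C1QB are among the 9 only through their M1 libraries.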

How the results depend on the processing

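Counts of called genes stayed within 1.5 times under the alternatives run, except that M2 against M0 in CES1KD gave 1861 in place of 3025 genes with only the groups compared in the fit. Leaving out 1 library gave 6688 to 7963, 7155 to 8267 and 6378 to 7385 genes for the knockdown in M0, M1 and M2, 5869 to 7147 and 5411 to 6744 for M1 against M0 in WT and CES1KD, 3007 to 4402 and 2585 to 3254 for M2 against M0, and 2791 to 3920 and 722 to 1178 for the interactions in M1 and M2. Of the complement results under alternatives other than left-out libraries, 768 kept direction and call, 16 lost the call, 13 gained it and 13 changed sign; with 1 library left out these were 1914, 16, 0 and 14. No result that changed sign was called. In the M1 interaction C2 (-0.12) became 0.45 with 0.1 added, 0.0909 with 0.5 added, 0.27 as TPM and 0.56 with voom. In the M2 interaction C1QA (0.41) became -0.27 with 0.1 added and -1.90 with voom, C1QB (-0.07) became 0.22 with voom, C1QC (0.24) -0.14 and -0.66, C2 (0.08) -0.0765 and -0.22, and SERPING1 (-0.00695) 0.0174 by total fragments and 0.00632 as TPM; the cause was not tested. With 1 library left out, SERPING1 in M0 ran from -0.0845 to 0.00841, C1QB in M2 against M0 from -0.0189 to 0.17 in WT and from -0.00662 to 0.0542 in CES1KD, and the M2 interaction from -0.14 to 0.0536 for C1QB, from -0.00200 to 0.12 for C2 and from -0.0521 to 0.0433 for SERPING1.

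Scaling by total fragments moved the median of all genes by -0.20 (WT) and -0.18 (CES1KD) in M1 against M0, and TPM by -0.28 and -0.24, and by -0.12 in M2 against M0 in WT. Under total fragments, higher and lower calls went from 3493 and 2881 to 1995 and 5712 for M1 in WT, from 3296 and 2626 to 1824 and 5372 in CES1KD, from 1934 and 1651 to 1351 and 2656 for M2 in WT, and from 319 and 562 to 503 and 442 for the M2 interaction. Deviations of the libraries from their group means were correlated between the lines. Same-numbered libraries gave -0.04 to 0.03 in M0, 0.04 to 0.41 in M1 and -0.06 to 0.41 in M2. Other pairs gave -0.14 to 0.10, -0.37 to 0.15 and -0.38 to 0.24 in the same states. Whether the numbers pair libraries in M1 and M2 was not settled. With the replicate block 7436, 7810 and 7203 genes were called for the knockdown, against 7196, 7578 and 6929. Depth limits CFB, which the overlap with another gene also touches, and the resting C1q chains, with as few as 2 fragments per group.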
